A study of Mus musculus with 14 samples.

Results

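EGF and FGF family receptors are the cell-surface tyrosine kinases that read epidermal and fibroblast growth factors. The members described here are the EGF receptor family genes Egfr, Erbb2, Erbb3 and Erbb4 and the FGF receptor genes Fgfr1, Fgfr2 and Fgfr3. They were chosen by name, as every probe set to which the array's annotation gives one of these symbols. This gave 19 of 45037 probe sets, of which 7 are of Egfr, 3 each of Fgfr1 and Fgfr2, 2 each of Erbb3 and Fgfr3, and 1 each of Erbb2 and Erbb4.

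A ligand brings receptor molecules together in pairs, the kinases phosphorylate the paired tails, and adaptor proteins bound there pass the signal to Ras and the MAP kinase ERK. Erbb2 has no known ligand of its own and works as a partner, while Erbb3 binds neuregulins but has a weak kinase and depends on its partner. EGF and FGF2 are the growth factors in which neural stem cells are commonly kept in culture. In the subependymal zone, the neurogenic layer along the lateral ventricle, Egfr is known from transit-amplifying cells and activated stem cells, Erbb4 from migrating neuroblasts, Erbb3 and Fgfr2 from the oligodendrocyte lineage, and Fgfr3 from astrocytes and radial glia.

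All cells were sorted by fluorescence from hGFAP eGFP mice aged 8 weeks, a line whose green fluorescent protein (GFP) is under the human GFAP promoter. The groups from the subependymal zone (SEZ) were SEZ_GFPprom, positive for GFP and prominin (n = 4 arrays), SEZ_GFP, sorted on GFP (n = 2), and SEZ_Prom, sorted on prominin (n = 2), all 3 labelled neural stem cells, and SEZ_CD24, sorted on CD24 (n = 2) and labelled ependymal. GFP-positive cells of the diencephalon, labelled astrocytes, were the fifth group (DIEC_GFP, n = 4). The labels call the arrays biological replicates but do not say whether separate animals gave them, so a p-value here reflects only how far these arrays spread, which may be technical.

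The deposited value of a probe set is a linear intensity, with a median of 27 on every array. Arrays of one group correlated at 0.94 to 0.97, and arrays of different groups at 0.86 to 0.95. The SEZ_CD24 arrays went against their label. The summed intensity of 10 ependymal markers was 373 to 583 there, where Meig1 never exceeded 10, against 15523 to 25855 in SEZ_GFPprom, 746 to 1405 in SEZ_GFP, 636 to 1100 in SEZ_Prom and 5897 to 8850 in DIEC_GFP. All 10 were higher in SEZ_GFPprom than in SEZ_CD24 by limma's test, so the SEZ_CD24 sort is called by its surface marker here. The highest ependymal sums were thus in SEZ_GFPprom, labelled neural stem cells. In DIEC_GFP, labelled astrocytes, 7 oligodendrocyte markers summed to 29711 to 40409, against 9593 to 14172 in SEZ_GFPprom. The summed intensity of 10 astrocyte markers was 13108 to 23405 in DIEC_GFP, 3031 to 7951 in SEZ_CD24 and 10775 to 13860 over the other groups. In RNA from sorted cells, fewer cells of a type and less RNA per cell cannot be told apart.

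RefSeq's promoter table (build GRCm38.p6) held a promoter for 5 of the 7 receptors, with 6 starts. The window runs from 250 bases before a start to 50 after it. The promoters of Fgfr3 and Fgfr2, which differed between sorts, and of Egfr are shown because they differ in base composition, with capitals marking GC boxes, the letters GGGCGG on either strand.

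Fgfr3, chr5:33721474-33721773, plus strand: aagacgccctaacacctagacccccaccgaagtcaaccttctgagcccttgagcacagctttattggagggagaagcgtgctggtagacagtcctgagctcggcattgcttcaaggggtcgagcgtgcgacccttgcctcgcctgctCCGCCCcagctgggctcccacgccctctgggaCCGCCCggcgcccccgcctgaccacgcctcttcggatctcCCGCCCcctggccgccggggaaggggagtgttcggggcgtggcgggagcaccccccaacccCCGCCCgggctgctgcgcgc
Fgfr2, chr7:130266759-130267058, minus strand: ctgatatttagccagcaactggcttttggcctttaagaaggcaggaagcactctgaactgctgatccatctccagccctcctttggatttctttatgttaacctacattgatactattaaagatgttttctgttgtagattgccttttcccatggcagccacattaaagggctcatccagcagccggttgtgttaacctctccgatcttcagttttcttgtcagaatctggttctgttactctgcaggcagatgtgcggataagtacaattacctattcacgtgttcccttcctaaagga
Egfr, chr11:16751953-16752252, plus strand: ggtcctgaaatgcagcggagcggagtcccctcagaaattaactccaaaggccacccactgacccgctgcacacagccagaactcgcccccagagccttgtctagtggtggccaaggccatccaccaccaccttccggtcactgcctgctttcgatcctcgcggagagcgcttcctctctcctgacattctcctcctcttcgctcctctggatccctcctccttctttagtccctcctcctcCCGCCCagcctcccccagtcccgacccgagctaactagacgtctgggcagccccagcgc

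The Fgfr3 window shown, the upstream-most of 2 starts in the table, holds 4 GC boxes and 26 CpG dinucleotides at a GC content of 69.7%. The window of the other Fgfr3 start, chr5:33722056-33722355, holds 2 GC boxes and 30 CpG dinucleotides at 73.0% GC. The Fgfr2 window holds no GC box and 4 CpG dinucleotides at 43.7% GC, and the Egfr window holds 1 GC box and 15 CpG dinucleotides at 62.3% GC. Over all 32851 promoters of that length in the table, the median was 7 CpG dinucleotides, and 35.7% held a GC box. Of the other motifs searched on both strands, an E-box (CANNTG, in 72.3% of all promoters) was found 3 times in Fgfr2 and not in Egfr, and the STAT motif TTCNNNGAA (in 8.30%) in none of the 6 receptor windows. These matches describe the letters of the windows, and a missing match says nothing about a factor.

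Levels of the 7 receptors on every array are plotted by array for the probe set with the highest mean of each gene, called the leading probe set. Of the 19 probe sets, 10 had no array above an intensity of 50, so the results rest mainly on the leading probe sets of Egfr, Erbb3, Fgfr1, Fgfr2 and Fgfr3.

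**Figure D1:**
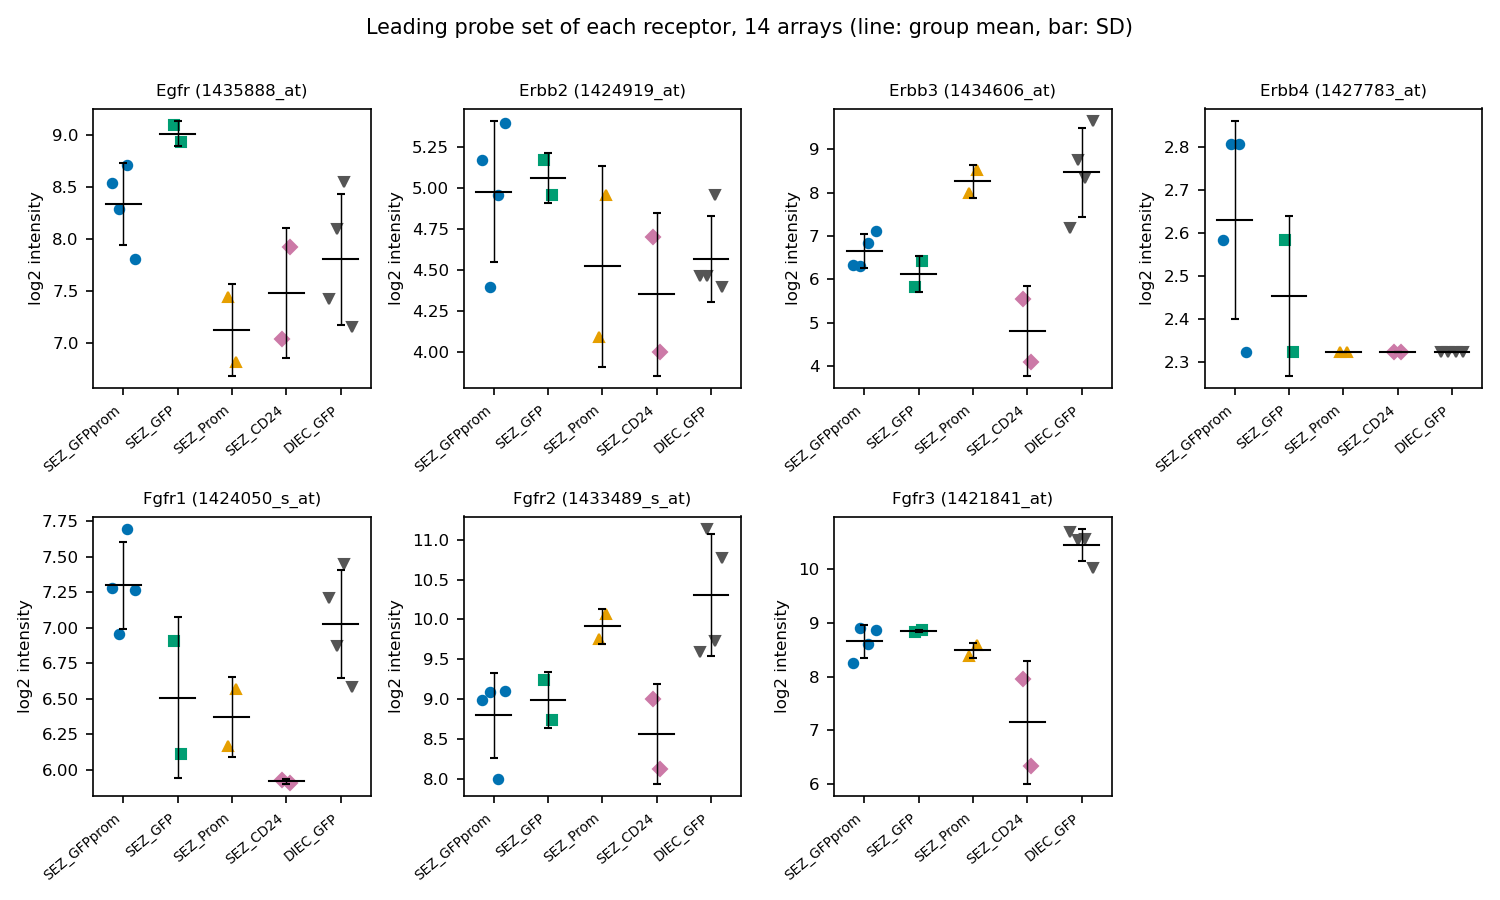
Log2 intensity of the leading probe set of each receptor by sort group, 1 point per array, with a line at the group mean and bars of 1 SD; each panel has its own scale. Mean Egfr was highest in SEZ_GFP at 9.02 and mean Fgfr3 in DIEC_GFP at 10.46, while Erbb4 spans only linear intensities of 5 to 7.

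Differences were tested in 6 comparisons, on log2 intensity, in 1 limma fit over all 45037 probe sets and 14 arrays, with p adjusted over all probe sets at a threshold of 0.05. SEZ_GFPprom enters 4 of the comparisons and each other group enters 2, so that they share arrays and are not independent. By the F test for any difference among the 5 groups, 5 of 19 receptor probe sets passed, or 26.3%, against 16.9% of all probe sets. They were the leading probe sets of Erbb3, Fgfr1, Fgfr2 and Fgfr3 and a further probe set of Fgfr2. The count was 2 without SEZ_CD24 replicate 1 or 2, SEZ_GFPprom replicate 4 or SEZ_Prom replicate 1, and 3 without SEZ_GFP replicate 2, SEZ_GFPprom replicate 1, 2 or 3 or SEZ_Prom replicate 2. The leading Fgfr2 probe set passed the F test at an adjusted p of 0.0498 and missed it without any 1 of the arrays except DIEC_GFP replicates 1 and 3 (0.0544 to 0.103), with values under 10 set to 10 (0.0871) and with a block per replicate number (0.0534). Fgfr1, at 0.0309, missed it without DIEC_GFP replicate 1, SEZ_CD24 replicate 1 or 2, SEZ_GFPprom replicate 1, 3 or 4 or SEZ_Prom replicate 1 (0.0518 to 0.0917), with the block (0.0750) and, by a margin in the fifth decimal, with each array's 3' to 5' probe ratio as a covariate. The further Fgfr2 probe set, at 0.0295, missed it without SEZ_CD24 replicate 1 or 2, SEZ_GFP replicate 2, SEZ_GFPprom replicate 2 or 4 or SEZ_Prom replicate 1 or 2 (0.0501 to 0.159), and with values under 10 set to 10 (0.0580).

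SEZ_GFPprom cells had less Erbb3, Fgfr2 and Fgfr3 RNA than DIEC_GFP cells. These were 3 of 19 receptor probe sets, all lower, or 15.8%. Of all probe sets, 5.60% were called lower and 6.43% higher in that comparison, 5417 of 45037 in both directions together, and 15.8% is near that sum. The median difference was 0.04 over the 19 and 0.05 over all probe sets. Against SEZ_GFP, 0 of 19 passed by limma, where 1.69% of all probe sets were called. An unadjusted p under 0.05 was reached by 1 (Fgfr1), or 5.26%, beside 12.7% of all probe sets. Against SEZ_Prom, 1 of 19 passed and was lower, an Fgfr2 probe set, where 3.67% of all were called. Against SEZ_CD24, 2 of 19 passed and were higher, Fgfr1 and Fgfr3, where 9.39% of all were called. In SEZ_GFP against DIEC_GFP, 2 passed and were lower, Erbb3 and Fgfr3, where 7.90% of all were called. In SEZ_Prom against SEZ_CD24, 2 passed and were higher, Erbb3 and an Fgfr2 probe set, where 3.22% of all were called. None of these shares is read as particular to the receptors. Where arrays of a group lie apart from others below, how often this holds over all probe sets was not counted.

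**Figure D2:**
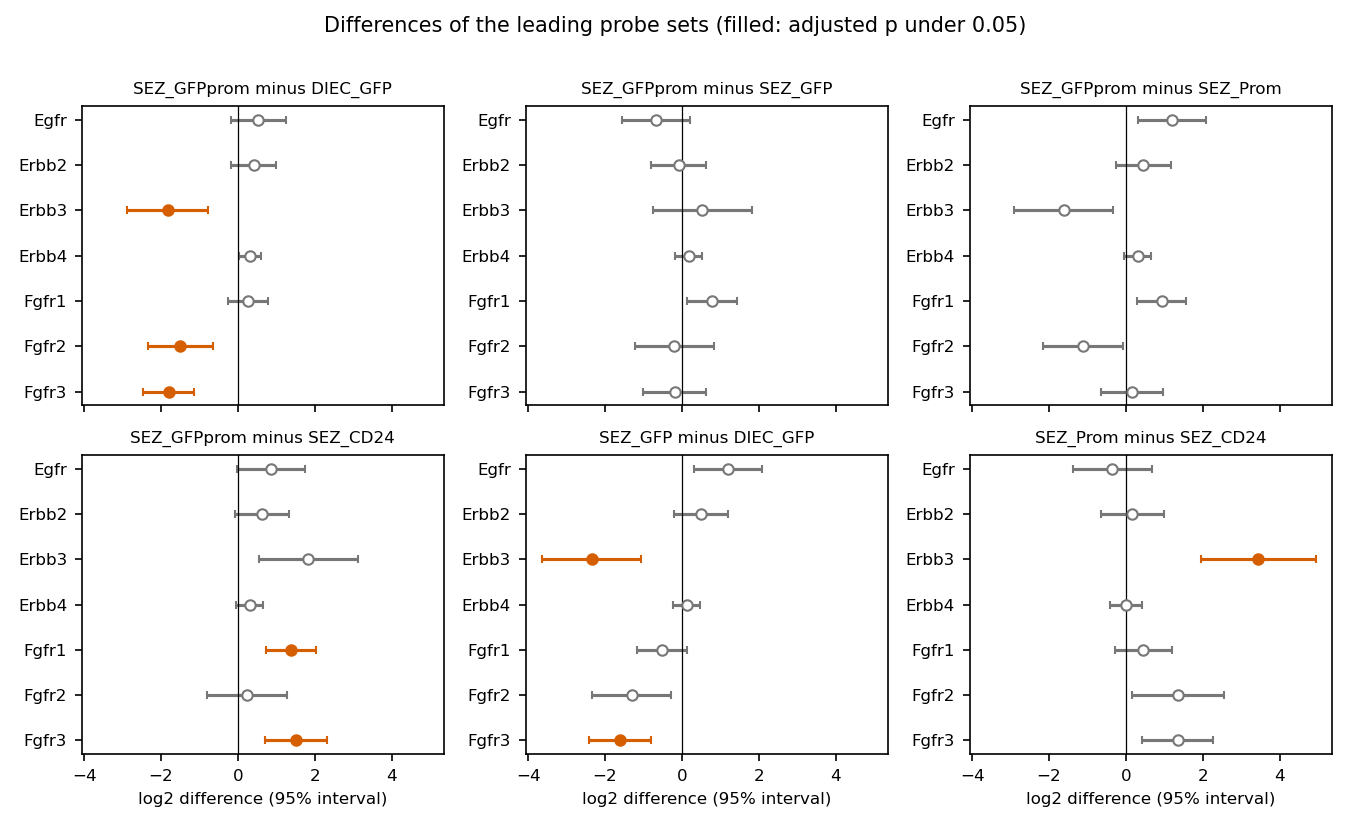
Log2 difference in intensity of the leading probe sets in the 6 comparisons, first group minus second on the x axis, with 95% intervals from the limma fit; filled points passed at an adjusted p under 0.05. Fgfr3 lay at -1.80 in SEZ_GFPprom against DIEC_GFP and at 1.51 in SEZ_GFPprom against SEZ_CD24, and Egfr had no filled point.

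Egfr, the receptor for EGF, TGF-alpha and HB-EGF, had its highest intensities in the GFP sort of the SEZ. The leading probe set 1435888_at had 373, 313, 420 and 224 in SEZ_GFPprom, 549 and 489 in SEZ_GFP, 174 and 113 in SEZ_Prom, 132 and 243 in SEZ_CD24, and 172, 274, 374 and 143 in DIEC_GFP. Both SEZ_GFP arrays lay above all others, while each later neighbour in the order SEZ_GFPprom, DIEC_GFP, SEZ_CD24 and SEZ_Prom overlapped the one before it. The mean was 8.34 ± 0.39 on the log2 scale in SEZ_GFPprom, 9.02 ± 0.12 in SEZ_GFP, 7.13 ± 0.44 in SEZ_Prom, 7.48 ± 0.62 in SEZ_CD24 and 7.81 ± 0.63 in DIEC_GFP (SD).

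No difference in Egfr passed. SEZ_GFP minus DIEC_GFP was 1.21 (95% interval 0.32 to 2.09, adjusted p = 0.101) and SEZ_GFPprom minus SEZ_Prom was 1.21 (0.32 to 2.09, adjusted p = 0.141). The differences of SEZ_GFPprom from DIEC_GFP (0.53, -0.19 to 1.25, adjusted p = 0.335) and from SEZ_GFP (-0.68, -1.56 to 0.21, adjusted p = 0.556) had intervals that included 0. The F test gave an adjusted p of 0.0589, near the threshold, and passed without DIEC_GFP replicate 3 (0.0322) or 4 (0.0494), with 1 probe set per gene (0.0426), without the dimmest 25% of probe sets (0.0471) and with a block per replicate number (0.0401). Without DIEC_GFP replicate 3, whose intensity of 374 was the highest of its group, SEZ_GFP minus DIEC_GFP was 1.46 with an adjusted p of 0.0433.

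A further Egfr probe set, 1424932_at, was also highest in SEZ_GFP, with 90, 139, 255 and 44 in SEZ_GFPprom, 188 and 155 in SEZ_GFP, 36 and 39 in SEZ_Prom, 23 and 73 in SEZ_CD24 and 101, 61, 79 and 29 in DIEC_GFP. One SEZ_GFPprom array, at 255, lay above both SEZ_GFP arrays. The probe set 1460420_a_at differed little by group, between 62 and 157 over all arrays, with an adjusted p of 0.321 at the least in the 6 comparisons. The other 4 Egfr probe sets stayed at 25 or less. The summed intensity of 7 proliferation markers was 3861 to 6489 in SEZ_GFPprom, 7884 to 9520 in SEZ_GFP, 1385 to 1500 in SEZ_Prom, 3984 to 4688 in SEZ_CD24 and 138 to 481 in DIEC_GFP, and all 7 passed as higher in SEZ_GFP than in DIEC_GFP. For 5 transit-amplifying and neurogenic markers, of 6 listed, the sums were 8596 to 9218 in SEZ_GFP and 7905 to 11507 in SEZ_CD24. They were 4063 to 5849 in SEZ_GFPprom, 2326 to 3774 in SEZ_Prom and 202 to 379 in DIEC_GFP. The part of dividing or transit-amplifying cells in the Egfr values was not tested.

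**Figure D3:**
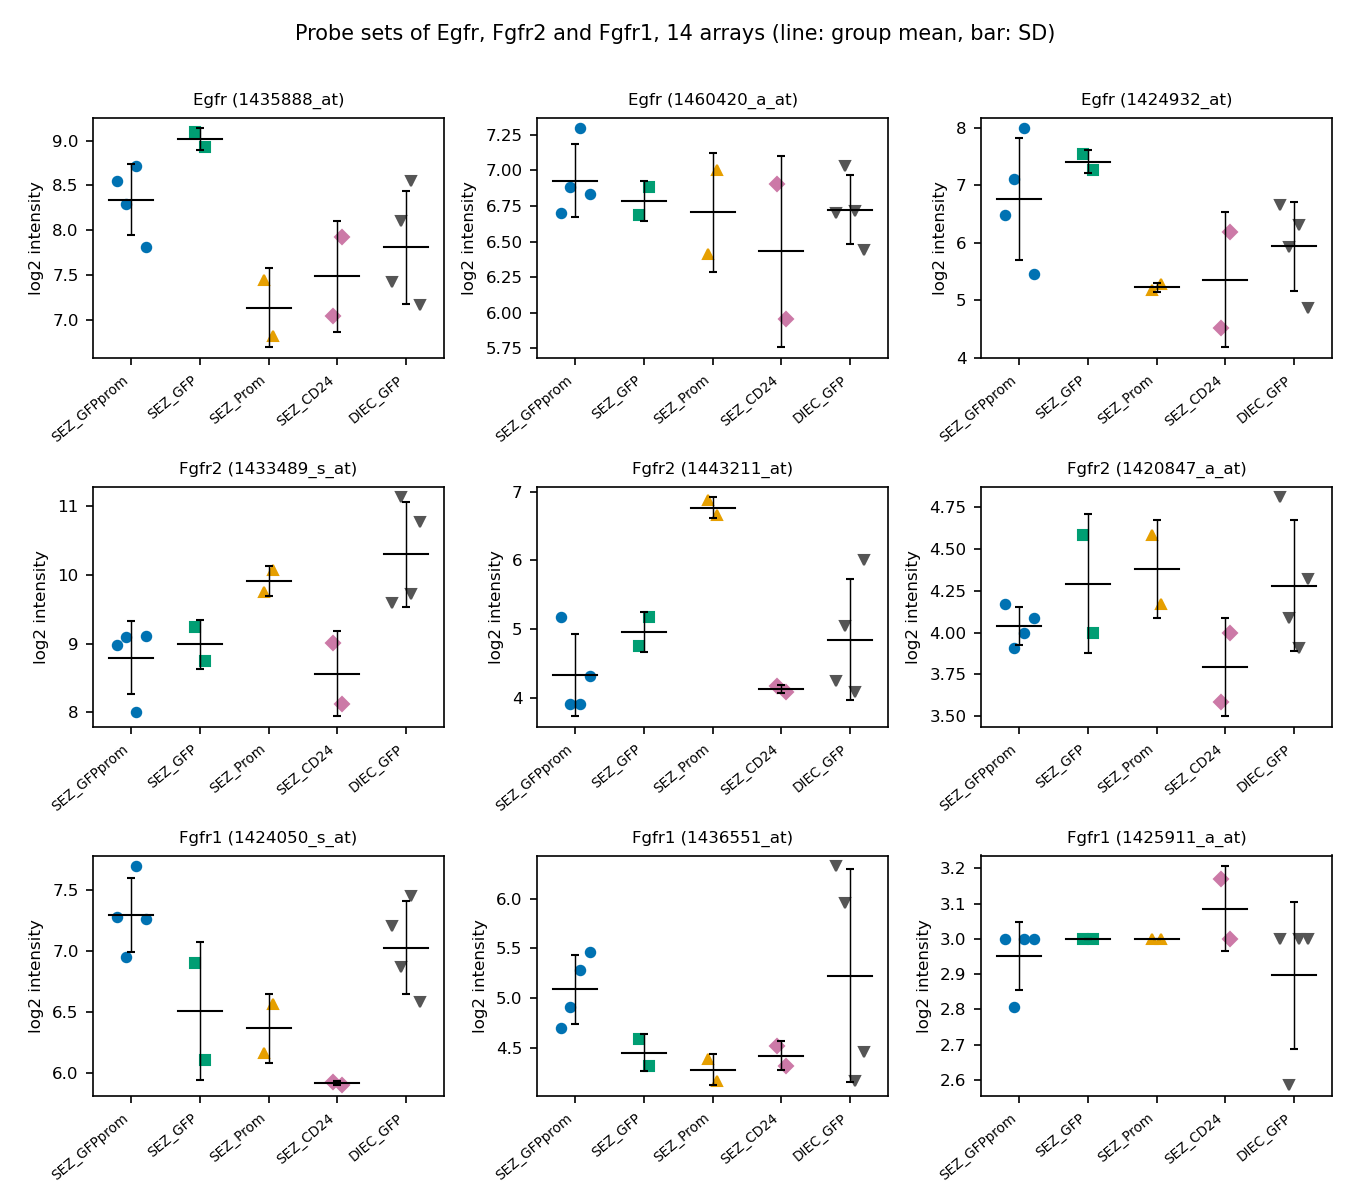
Log2 intensity of 3 probe sets each of Egfr, Fgfr2 and Fgfr1 (rows) by sort group, those with the highest means, 1 point per array, with a line at the group mean and bars of 1 SD; each panel has its own scale. The leading Egfr probe set and 1424932_at have their highest group mean in SEZ_GFP, while for Fgfr2 the leading probe set is highest in DIEC_GFP and 1443211_at in SEZ_Prom.

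Erbb2, the partner receptor, was measured by 1 probe set near the array median. It had 36, 21, 31 and 42 in SEZ_GFPprom, 36 and 31 in SEZ_GFP, 17 and 31 in SEZ_Prom, 26 and 16 in SEZ_CD24, and 22, 22, 31 and 21 in DIEC_GFP. The groups overlapped with their neighbours throughout, and no difference passed. SEZ_GFPprom minus DIEC_GFP was 0.41 (adjusted p = 0.356). Erbb4, the neuregulin receptor of neuroblasts and interneurons, lay at 10 or less on all 14 arrays, with 6, 7, 7 and 5 in SEZ_GFPprom, 6 and 5 in SEZ_GFP, and 5 on every array of SEZ_Prom, SEZ_CD24 and DIEC_GFP. This holds also for SEZ_CD24, where 7 neuroblast markers summed to 9748 to 17958, against 872 to 1434 in DIEC_GFP. At that intensity a difference in Erbb4 was not measurable with its 1 probe set.

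Erbb3, the neuregulin receptor with the weak kinase, differed most widely among the EGF family. Its leading probe set 1434606_at had 81, 80, 115 and 138 in SEZ_GFPprom, 57 and 86 in SEZ_GFP, 256 and 371 in SEZ_Prom, 47 and 17 in SEZ_CD24, and 145, 429, 322 and 803 in DIEC_GFP. DIEC_GFP and SEZ_Prom overlapped at the top, SEZ_GFPprom and SEZ_GFP overlapped below them, and both SEZ_CD24 arrays lay below all others. The mean was 6.65 ± 0.39 on the log2 scale in SEZ_GFPprom, 6.13 ± 0.42 in SEZ_GFP, 8.27 ± 0.38 in SEZ_Prom, 4.82 ± 1.04 in SEZ_CD24 and 8.48 ± 1.02 in DIEC_GFP (SD).

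Erbb3 was lower in SEZ_GFPprom than in DIEC_GFP by 3.54-fold (log2 difference -1.82, SE 0.48, adjusted p = 0.0312). It was lower in SEZ_GFP than in DIEC_GFP by 5.09-fold (-2.35, SE 0.59, adjusted p = 0.0324) and higher in SEZ_Prom than in SEZ_CD24 by 10.9-fold (3.45, SE 0.68, adjusted p = 0.0240). SEZ_GFPprom minus SEZ_Prom was -1.61 (adjusted p = 0.178) and SEZ_GFPprom minus SEZ_CD24 was 1.83 (adjusted p = 0.0761), and neither passed. The difference from SEZ_CD24 passed without DIEC_GFP replicate 1 (adjusted p = 0.0372) or 4 (0.0433), and was 2.57 (0.0618) and 1.10 (0.498) without SEZ_CD24 replicate 1 and 2. The call of SEZ_GFPprom against DIEC_GFP was lost without any 1 of 6 arrays, DIEC_GFP replicates 2, 3 and 4 and SEZ_GFPprom replicates 1, 2 and 3, at adjusted p between 0.0527 and 0.0816. Those of the pairs with 2 arrays were lost without DIEC_GFP replicate 2 (0.0725) or 3 (0.0534) or SEZ_GFP replicate 1 (0.231) or 2 (0.132), and without SEZ_CD24 replicate 2 (0.146) or SEZ_Prom replicate 1 (0.0885) or 2 (0.139). In fits of only the groups compared the adjusted p of the 3 differences was 0.06, 0.14 and 0.196, with values under 10 set to 10 both differences from DIEC_GFP were lost (0.0533 and 0.0594), and with the 3' to 5' ratio of control transcripts as a covariate the difference of SEZ_Prom from SEZ_CD24 was 2.16 (0.143).

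Markers of oligodendrocytes moved in part with these groups. The summed intensity of 7 oligodendrocyte markers, of 8 listed, was 9593 to 14172 in SEZ_GFPprom, 4507 to 6600 in SEZ_GFP, 31543 to 32410 in SEZ_Prom, 6430 to 11223 in SEZ_CD24 and 29711 to 40409 in DIEC_GFP. The lowest of these sums was thus in SEZ_GFP, while the lowest Erbb3 was in SEZ_CD24. Within DIEC_GFP, replicates 1 and 4 had sums of 35821 and 37496, with Erbb3 at 145 and 803. No marker of the list stayed at or below 10 throughout a group. Of the 7, 6 passed as lower in SEZ_GFPprom than in DIEC_GFP, all 7 as lower in SEZ_GFP than in DIEC_GFP, and 6 as higher in SEZ_Prom than in SEZ_CD24. For 7 markers of oligodendrocyte progenitors the sums were 1130 to 2075 in SEZ_GFPprom, 2639 to 2779 in SEZ_GFP, 5591 to 7388 in SEZ_Prom, 533 to 2172 in SEZ_CD24 and 10652 to 14044 in DIEC_GFP. Their part in the Erbb3 and Fgfr2 results was not tested. The other Erbb3 probe set stayed between 13 and 19 on every array.

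Fgfr1, the FGF receptor of neural progenitors and many other cell types, was lowest in SEZ_CD24. Its leading probe set 1424050_s_at, whose suffix marks probes that match several transcripts, had 155, 124, 207 and 154 in SEZ_GFPprom, 120 and 69 in SEZ_GFP, 72 and 95 in SEZ_Prom, 61 and 60 in SEZ_CD24, and 148, 117, 175 and 96 in DIEC_GFP. Both SEZ_CD24 arrays lay below all others, and the remaining groups overlapped with their neighbours in the order SEZ_GFPprom, DIEC_GFP, SEZ_GFP and SEZ_Prom. The mean was 7.30 ± 0.30 on the log2 scale in SEZ_GFPprom, 6.51 ± 0.56 in SEZ_GFP, 6.37 ± 0.28 in SEZ_Prom, 5.92 ± 0.02 in SEZ_CD24 and 7.03 ± 0.38 in DIEC_GFP (SD).

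Fgfr1 was higher in SEZ_GFPprom than in SEZ_CD24 by 2.60-fold (log2 difference 1.38, SE 0.29, adjusted p = 0.0151). The differences of SEZ_GFPprom from SEZ_Prom (0.93, adjusted p = 0.119) and from SEZ_GFP (0.79, adjusted p = 0.266) did not pass. SEZ_GFPprom minus DIEC_GFP was 0.27 (adjusted p = 0.521). The call was lost without SEZ_CD24 replicate 1 (adjusted p = 0.0684) or 2 (0.0982). Between these groups other cell type markers moved too. The summed intensity of 7 microglia markers was 2218 to 3980 in SEZ_GFPprom and 12544 to 24507 in SEZ_CD24, with 4 of 7 lower in SEZ_GFPprom, and that of 7 neuroblast markers was 3054 to 3966 in SEZ_GFPprom and 9748 to 17958 in SEZ_CD24, with 5 of 7 lower. Other lists went the way of Fgfr1, with 10 of 10 ependymal, 6 of 10 astrocyte, 3 of 5 mural and 1 of 7 oligodendrocyte markers higher in SEZ_GFPprom. Lower there were also 2 of 5 choroid plexus and 1 of 5 transit-amplifying and neurogenic markers. No microglia or neuroblast marker stayed at or below 10 throughout a group. The part of all these lists in the Fgfr1 result was not tested. The probe set 1436551_at did not follow the leading one in DIEC_GFP, where replicates 1 and 2 had 80 and 62 and replicates 3 and 4 had 18 and 22. It had 26 to 44 in SEZ_GFPprom, 20 to 24 in SEZ_GFP, 18 to 21 in SEZ_Prom and 20 to 23 in SEZ_CD24, and none of its differences passed. The last Fgfr1 probe set stayed at 9 or less.

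Fgfr2, the FGF receptor of astrocytes and oligodendrocytes in the brain, had its highest levels in DIEC_GFP and SEZ_Prom. Its leading probe set is 1433489_s_at, whose suffix, as for Fgfr1, marks probes that match several transcripts. It had 508, 546, 256 and 552 in SEZ_GFPprom, 606 and 428 in SEZ_GFP, 867 and 1074 in SEZ_Prom, 514 and 279 in SEZ_CD24, and 770, 2243, 846 and 1742 in DIEC_GFP. The arrays of DIEC_GFP and SEZ_Prom lay above all others and overlapped each other, as did the 3 lower groups. The mean was 8.80 ± 0.53 on the log2 scale in SEZ_GFPprom, 8.99 ± 0.35 in SEZ_GFP, 9.91 ± 0.22 in SEZ_Prom, 8.56 ± 0.62 in SEZ_CD24 and 10.30 ± 0.76 in DIEC_GFP (SD).

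Fgfr2 was lower in SEZ_GFPprom than in DIEC_GFP by 2.84-fold (log2 difference -1.51, SE 0.39, adjusted p = 0.0277). SEZ_GFP minus DIEC_GFP was -1.31 (adjusted p = 0.130), SEZ_GFPprom minus SEZ_Prom was -1.12 (0.253) and SEZ_Prom minus SEZ_CD24 was 1.35 (0.213), with none past the threshold. The call was lost without DIEC_GFP replicate 2 (adjusted p = 0.0752) or 4 (0.061) or SEZ_GFPprom replicate 3 (0.0677), and in the fit of only the groups compared (0.0669). With the 3' to 5' covariate, SEZ_GFP minus DIEC_GFP was -2.55 (adjusted p = 0.0308). The mean of that log2 ratio was 4.94 ± 0.18 in SEZ_GFPprom, 4.73 ± 0.14 in SEZ_GFP, 4.63 ± 0.07 in SEZ_Prom, 5.15 ± 0.29 in SEZ_CD24 and 5.40 ± 0.29 in DIEC_GFP (SD).

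The Fgfr2 probe set 1443211_at set SEZ_Prom apart more sharply. It had 36, 15, 15 and 20 in SEZ_GFPprom, 27 and 36 in SEZ_GFP, 117 and 101 in SEZ_Prom, 18 and 17 in SEZ_CD24, and 19, 33, 17 and 64 in DIEC_GFP. Both SEZ_Prom arrays lay above the other 12, and DIEC_GFP, which had the highest values of the leading probe set, reached no more than 64. It was lower in SEZ_GFPprom than in SEZ_Prom by 5.42-fold (-2.44, SE 0.49, adjusted p = 0.0217) and higher in SEZ_Prom than in SEZ_CD24 by 6.21-fold (2.64, SE 0.57, adjusted p = 0.0341). The first call was lost without SEZ_Prom replicate 1 (adjusted p = 0.163) or 2 (0.121). The second was lost without SEZ_CD24 replicate 1 (0.0855) or 2 (0.141) or SEZ_Prom replicate 1 (0.149) or 2 (0.135), with values under 10 set to 10 (0.0589) and in the fit of only the groups compared (0.166). With the 3' to 5' covariate the adjusted p was 0.0515 for the first and 0.212 for the second. The remaining Fgfr2 probe set stayed between 12 and 28.

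Fgfr3, an FGF receptor known from astrocytes and radial glia, separated the diencephalic cells from all sorts of the SEZ. Its leading probe set 1421841_at had 304, 481, 389 and 467 in SEZ_GFPprom, 456 and 466 in SEZ_GFP, 335 and 386 in SEZ_Prom, 248 and 81 in SEZ_CD24, and 1654, 1498, 1514 and 1047 in DIEC_GFP. Every DIEC_GFP array lay above every SEZ array, both SEZ_CD24 arrays lay below all others, and the 3 groups between overlapped. The mean was 8.66 ± 0.30 on the log2 scale in SEZ_GFPprom, 8.85 ± 0.02 in SEZ_GFP, 8.49 ± 0.14 in SEZ_Prom, 7.15 ± 1.14 in SEZ_CD24 and 10.46 ± 0.29 in DIEC_GFP (SD).

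Fgfr3 was lower in SEZ_GFPprom than in DIEC_GFP by 3.49-fold (log2 difference -1.80, SE 0.30, adjusted p = 0.00367). It was lower in SEZ_GFP than in DIEC_GFP by 3.05-fold (-1.61, SE 0.37, adjusted p = 0.0214). It was higher in SEZ_GFPprom than in SEZ_CD24 by 2.85-fold (1.51, SE 0.37, adjusted p = 0.0274). The differences of SEZ_GFPprom from SEZ_GFP (-0.19, adjusted p = 0.908) and from SEZ_Prom (0.17, adjusted p = 0.883) did not pass. The call against SEZ_CD24 was lost without SEZ_CD24 replicate 2 (0.70, adjusted p = 0.265) or SEZ_GFPprom replicate 2 (0.0622) or 4 (0.057), and that of SEZ_GFP without DIEC_GFP replicate 1 (0.0504) or SEZ_GFP replicate 1 (0.132) or 2 (0.15). With the 3' to 5' covariate these calls were lost at 0.0586 and 0.171, and the first also in the fit of only the groups compared (0.143). SEZ_Prom minus SEZ_CD24, at 1.34 (adjusted p = 0.116), was 2.15 (adjusted p = 0.00985) without SEZ_CD24 replicate 1.

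The astrocyte markers moved in part with Fgfr3. Of 10, 5 passed as lower in SEZ_GFPprom than in DIEC_GFP, 5 as lower in SEZ_GFP than in DIEC_GFP and 6 as higher in SEZ_GFPprom than in SEZ_CD24. Their summed intensity was 11864 to 13860 in SEZ_GFPprom, 10775 to 13380 in SEZ_GFP and 11283 to 13452 in SEZ_Prom, and none of the 10 stayed at or below 10 throughout a group. DIEC_GFP replicate 4, with the lowest sum of its group at 13108, also had the lowest Fgfr3 of its group. That sum lay within the ranges of these 3 SEZ groups, and its Fgfr3 was 1047, with 481 on the highest SEZ array. Bright markers weigh most in a sum, so arrays with similar sums can differ in single astrocyte markers. Mean log2 intensity in SEZ_GFPprom and DIEC_GFP was 12.45 and 12.26 for Slc1a2, and 7.41 and 11.09 for Gjb6. The part of the astrocyte markers in the Fgfr3 results was not tested. The other Fgfr3 probe set, at 13 to 39, did not separate the groups.

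**Figure D4:**
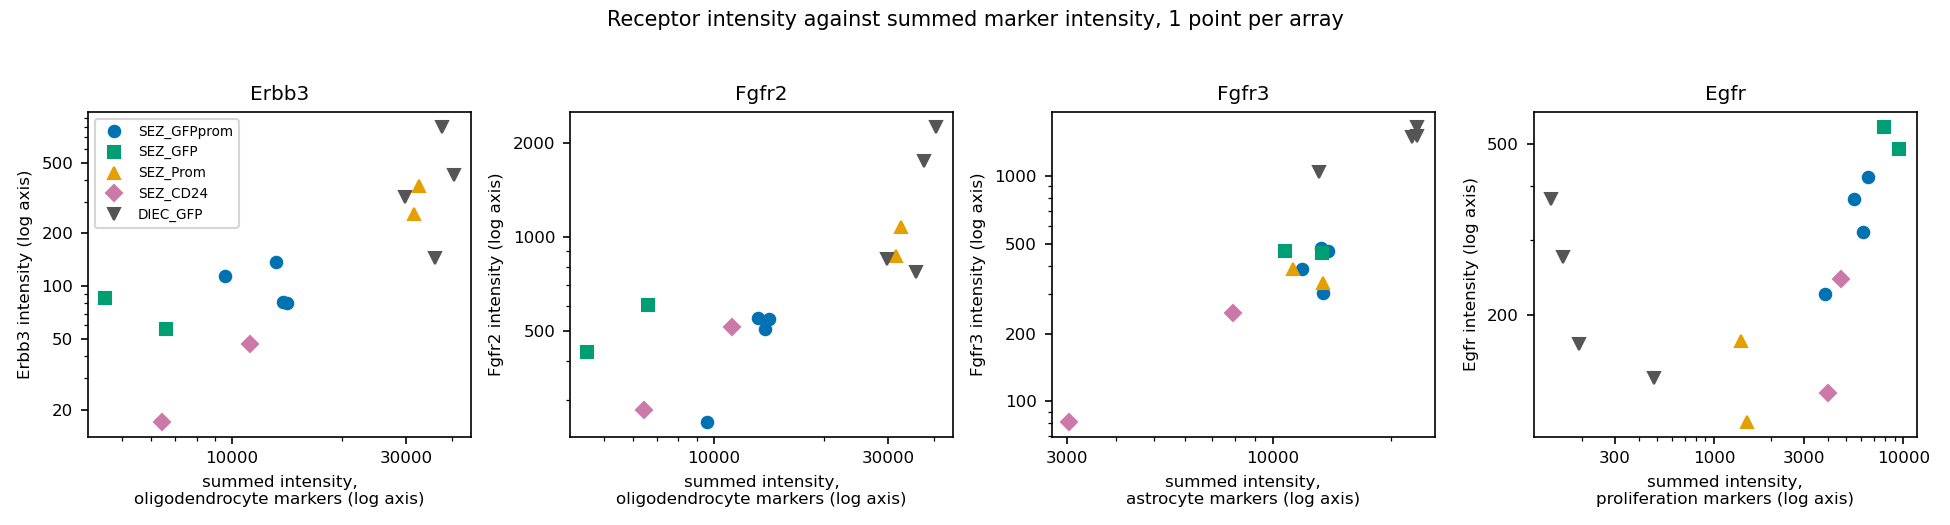
Receptor intensity against the summed intensity of a marker list, both on log axes, 1 point per array. Erbb3 and Fgfr2 are set against 7 oligodendrocyte markers, Fgfr3 against 10 astrocyte markers and Egfr against 7 proliferation markers; the DIEC_GFP arrays have proliferation sums of 138 to 481 and Egfr intensities of 143 to 374.

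The genes closest in profile were found for each receptor by the root mean square difference of the centred log2 profiles over the 14 arrays, among 12404 genes. For Egfr they were Mdk, the heparin-binding growth factor midkine (0.35), the nuclear pore gene Nup98 (0.37) and Tbc1d31 (0.40), against an SD of Egfr itself of 0.73. For Erbb3, with an SD of 1.48, they were 1700047M11Rik (0.43), Ggct and Cerox1 (both 0.47). For Fgfr1 (SD 0.58) they were Gpr180 (0.25), Mid2 (0.28) and Cyb5a (0.30). For Fgfr2 (SD 0.88) they were Serinc5 (0.33), Insc and Kcnk13 (both 0.34). For Fgfr3 (SD 1.19) they were Gpld1 (0.34), the secreted protease gene Htra1 (0.35) and the fatty acid ligase gene Acsl6 (0.36). For Erbb2 the closest were Thap3 (0.25), Snrnp27 (0.26) and Disp1 (0.27), and for Erbb4 Tcl1b4 (0.12), Krtap26-1 and Tead3 (both 0.13). These measures describe likeness over arrays that share groups.

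Other genes of the pathway were described by list, with 1 probe set per gene. Against DIEC_GFP the median log2 difference of SEZ_GFPprom was 0.06 over the EGF family ligands, 0.12 over the FGF ligands, -0.27 over co-receptors and receptor regulators, -0.19 over adaptors and signal relays and -0.81 over response and feedback genes, beside 0.08 over all 18193 genes, of which 15.6% passed. Against SEZ_GFP 0 of the 73 listed genes with a probe set passed by limma, where 2.57% of all genes passed, and 13 (17.8%) had an unadjusted p under 0.05, beside 12.7% of all probe sets.

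Among the ligands of the EGF family, 10 of 11 listed genes had a probe set. Tgfa, which encodes the Egfr ligand TGF-alpha, had its highest values where Egfr was not highest, with 313, 203, 301 and 262 in SEZ_GFPprom, 155 and 61 in SEZ_GFP, 958 and 793 in SEZ_Prom, 388 and 197 in SEZ_CD24, and 581, 963, 513 and 803 in DIEC_GFP. It was the 1 ligand of the 10 that passed in SEZ_GFPprom against DIEC_GFP and against SEZ_Prom, where 15.6% and 5.38% of all genes passed. It was lower in SEZ_GFPprom than in DIEC_GFP (log2 difference -1.38, adjusted p = 0.0188), lower in SEZ_GFPprom than in SEZ_Prom (-1.71, 0.0379) and lower in SEZ_GFP than in DIEC_GFP by 7.13-fold (-2.83, 0.00160). Hbegf, an Egfr ligand shed from the cell surface, had 126 to 301 in SEZ_GFPprom, against 34 to 41 in SEZ_CD24 (2.26, adjusted p = 0.00501). Egf itself was lower in SEZ_GFPprom than in SEZ_CD24 (-1.42, adjusted p = 0.0441). Its intensities were low, at 13 to 20 in SEZ_GFPprom, under the array median of 27, and 71 and 30 in SEZ_CD24. In SEZ_Prom against SEZ_CD24, 0 ligands of this list passed by limma, where 4.21% of all genes passed. There 3 had an unadjusted p under 0.05, or 30%, beside 18.2% of all probe sets, again an unlike base. Of 18 FGF ligands 1 passed in the 6 comparisons, or 5.56% in SEZ_GFPprom against DIEC_GFP, where 15.6% of all genes passed. It was Fgf9, an FGF made by neurons and glia, which was higher in SEZ_GFPprom than in DIEC_GFP (0.81, adjusted p = 0.0165). Fgf9 had 30 to 48 in SEZ_GFPprom and 19 to 29 in DIEC_GFP, also low intensities.

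Of 20 co-receptors and receptor regulators, 7 passed against DIEC_GFP, 3 higher and 4 lower in SEZ_GFPprom, beside 15.6% of all genes. Lrig1, a membrane protein that restrains EGF family receptors, had 142, 108, 58 and 200 in SEZ_GFPprom, 107 and 132 in SEZ_GFP, 170 and 129 in SEZ_Prom, 103 and 63 in SEZ_CD24, and 2465, 2408, 2026 and 802 in DIEC_GFP. Every DIEC_GFP array thus lay above every SEZ array, as for Fgfr3. Lrig1 was lower in SEZ_GFPprom than in DIEC_GFP (-3.93, adjusted p = 0.000325), and likewise in SEZ_GFP (-3.89, 0.00122). The glypican gene Gpc4, which encodes a heparan sulphate carrier that binds FGFs, was higher in SEZ_GFPprom than in DIEC_GFP (1.34, adjusted p = 0.0144), SEZ_Prom (2.21, 0.00733) and SEZ_CD24 (2.18, 0.00450). The syndecan gene Sdc3 was lower in SEZ_GFPprom than in DIEC_GFP (-1.04, adjusted p = 0.0234), and Sdc2 was lower in SEZ_GFP than in DIEC_GFP (-1.80, adjusted p = 0.00714).

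Against SEZ_CD24, 2 of the 20 were higher and 4 lower in SEZ_GFPprom, where 1456 of all 18193 genes were higher and 730 lower. Kl, whose product Klotho is the co-receptor for FGF23 and is known from the choroid plexus, had 6 to 7 in SEZ_GFPprom, 72 to 96 in SEZ_Prom and 39 to 74 in SEZ_CD24, and was lower in SEZ_GFPprom than in SEZ_Prom (adjusted p = 6.12e-05) and SEZ_CD24 (adjusted p = 6.44e-05). No size is given for these differences, since 6 to 7 lies at the bottom of the intensity scale, as for Erbb4. The summed intensity of 5 choroid plexus markers was 384 to 7674 in SEZ_GFPprom, 474 to 9237 in SEZ_GFP, 12665 to 13206 in SEZ_Prom, 9105 to 14714 in SEZ_CD24 and 1004 to 8645 in DIEC_GFP. Of these, Kcne2 never exceeded 10 in SEZ_GFPprom, SEZ_GFP or DIEC_GFP. Their part in the Kl result was not tested. Flrt2, a membrane protein of a family that binds FGF receptors, was lower in SEZ_GFPprom than in SEZ_CD24 (-1.40, adjusted p = 0.0165), higher in SEZ_GFP than in DIEC_GFP (2.23, 0.00139) and lower in SEZ_Prom than in SEZ_CD24 (-2.46, 0.00768). The list had 2 of 20 past the threshold in SEZ_GFPprom against SEZ_Prom, where 5.38% of all genes passed. It had 3 in SEZ_GFP against DIEC_GFP, where 11.0% passed, and 1 in SEZ_Prom against SEZ_CD24, where 4.21% passed, both near the share over all genes.

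Among 13 adaptors and signal relays with a probe set, of 19 listed, 3 passed in SEZ_GFPprom against DIEC_GFP, 1 higher and 2 lower, or 23.1% against 15.6% of all genes. Map2k1, the MAP kinase kinase MEK1 that activates ERK, had 139 to 353 in SEZ_GFPprom, 134 to 143 in SEZ_GFP, 676 to 817 in SEZ_Prom, 263 to 498 in SEZ_CD24 and 414 to 1084 in DIEC_GFP. It was lower in SEZ_GFPprom than in DIEC_GFP (-1.73, adjusted p = 0.00899) and than in SEZ_Prom (-1.93, 0.0309), and lower in SEZ_GFP than in DIEC_GFP (-2.23, 0.00839). Plcg1, the phospholipase that binds phosphorylated receptors, was higher than in DIEC_GFP in both SEZ_GFPprom (0.81, adjusted p = 0.0367) and SEZ_GFP (1.51, 0.00632), and was lower than in SEZ_CD24 in SEZ_GFPprom (-1.11, 0.0277) and SEZ_Prom (-1.84, 0.0147). The docking protein gene Gab1 was lower in SEZ_GFP than in DIEC_GFP (-1.69, adjusted p = 0.00550) and higher in SEZ_Prom than in SEZ_CD24 (1.52, 0.0387). Nras was lower in SEZ_GFPprom than in DIEC_GFP (-0.84, adjusted p = 0.0460).

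Of 12 response and feedback genes with a probe set, 1 (8.33%) passed against DIEC_GFP, where 15.6% of all genes passed. It was Spry1, a Sprouty inhibitor of receptor signalling, which was lower in SEZ_GFPprom (-1.59, adjusted p = 0.0108). The phosphatase genes Dusp4 and Dusp6, both of which turn ERK signalling down, had the largest differences of the list that passed. Against SEZ_CD24, 1 of the 12 was higher and 2 were lower in SEZ_GFPprom, beside the 1456 and 730 of 18193 genes. Dusp4 had 92, 12, 94 and 35 in SEZ_GFPprom, 315 and 293 in SEZ_GFP, 59 and 15 in SEZ_Prom, 424 and 527 in SEZ_CD24, and 13, 13, 18 and 14 in DIEC_GFP. SEZ_GFP and SEZ_CD24 thus lay above all other arrays. Dusp4 was higher in SEZ_GFP than in DIEC_GFP (4.40, adjusted p = 0.00440) and lower than in SEZ_CD24 in both SEZ_GFPprom (-3.44, 0.0160) and SEZ_Prom (-3.99, 0.0332). Dusp6 had 63, 48, 57 and 17 in SEZ_GFPprom, 16 and 29 in SEZ_GFP, 181 and 119 in SEZ_Prom, 828 and 663 in SEZ_CD24, and 370, 444, 23 and 37 in DIEC_GFP. It was lower in SEZ_GFPprom than in SEZ_CD24 (-4.16, adjusted p = 0.0355), and in DIEC_GFP replicates 1 and 2 differed from replicates 3 and 4. Spry2, another Sprouty gene, was higher in SEZ_GFPprom than in SEZ_CD24 (1.58, adjusted p = 0.0260).

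**Figure D5:**
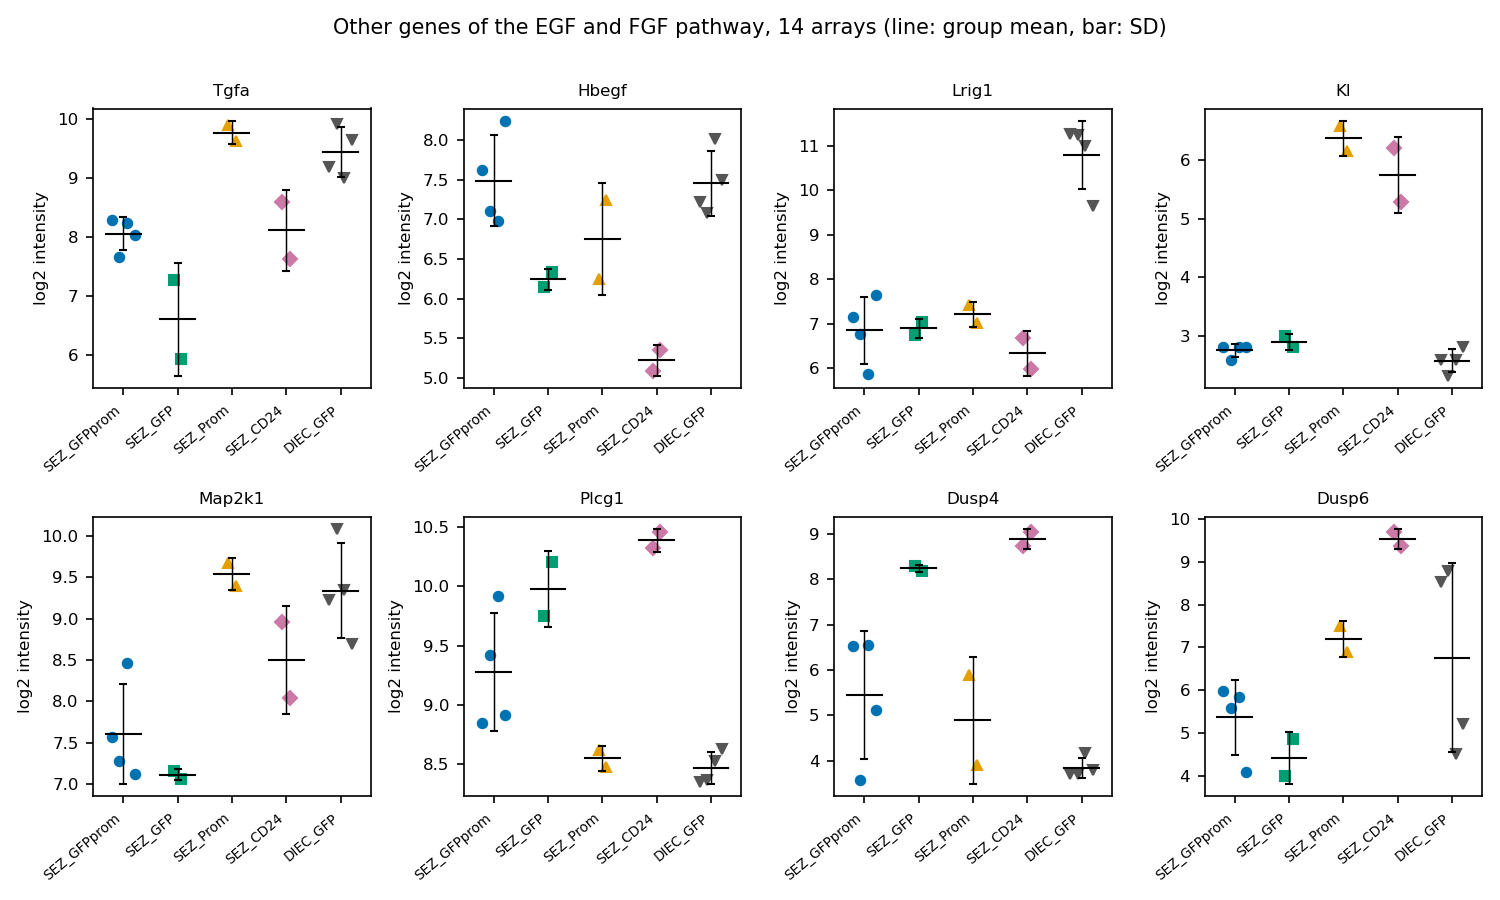
Log2 intensity of 8 pathway genes, chosen for display after their values were seen, by sort group, 1 point per array, with a line at the group mean and bars of 1 SD. As linear intensities, Lrig1 was 802 to 2465 in DIEC_GFP and 58 to 200 over the SEZ arrays, and Dusp4 was 293 to 527 on the SEZ_GFP and SEZ_CD24 arrays and at most 94 on the others.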

How the data were processed

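RNA of cells sorted by fluorescence was extracted with a column kit including DNase, put through repeated amplification with biotin labelling, per the labels' protocols, and hybridised to 14 Affymetrix MOE430 2.0 arrays. The deposited values are linear intensity values made by RMA, per the submitters' processing notes, with no version given, and were rounded to whole numbers in the table. Their log2 was taken without a pseudocount. Rounding is coarse at low intensity, where 1 unit is a large step on the log2 scale. The number of arrays limits the precision.

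After 64 array controls were left out, 45037 probe sets remained, of which 34945 had 1 gene symbol in the platform's annotation, 932 had several and 9160 had none. Each probe set was tested with limma 3.58.1 in R 4.3.3 (lmFit, contrasts.fit, eBayes), in 1 fit of 14 arrays with group means as the only terms, leaving 9 residual degrees of freedom beside 2.30 of the prior. Tests were two-sided, with the moderated F test for any difference, and p was adjusted by the Benjamini-Hochberg method over all probe sets within a comparison. Intervals are 95% intervals of the fit.

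Pathway and marker genes were each represented by their leading probe set (18193 genes in all), and some listed genes were not analysed here. Of a pathway list, up to 3 genes per comparison with the smallest adjusted p under the threshold are named. Likeness was searched among genes with a group mean of at least 5 on the log2 scale in at least 1 group. The members and lists were chosen with earlier results of these data known. The fit was tested on simulated data. The alternatives were quantile normalization, values under 10 set to 10, leaving out the dimmest 25% of probe sets, 1 probe set per gene, a replicate block, the 3' to 5' ratio as a covariate, fits of only the groups compared, and leaving out each array.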

Additional observations from a re-analysis of the deposited data

Results flagged for a closer look

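Within groups of 4 arrays, the gap of the highest or lowest array to its nearest neighbour, as a share of the group's range on the log2 scale, was set against Dixon's 95% critical value. It was exceeded in 5 of 37 groups tested, where chance flags about 1 in 20. SEZ_GFPprom replicate 3 was far below its group for the leading Fgfr2 probe set, with 256 against 508 to 552 (share 0.892). Without it, Fgfr2 no longer passed in SEZ_GFPprom against DIEC_GFP (adjusted p = 0.0677). DIEC_GFP replicate 3 was far above its group for Erbb2, with 31 against 21 to 22 (share 0.881). In the remaining cases the arrays differed by whole units of a rounded intensity at or below 10, each with a share of 1. They were Egfr 1457563_at in SEZ_GFPprom replicate 4 (8, the highest), Fgfr1 1425911_a_at in SEZ_GFPprom replicate 2 (7, the lowest) and Fgfr1 1425911_a_at in DIEC_GFP replicate 2 (6, the lowest).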

How the results depend on the processing

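Of 10 called receptor differences, 1 kept its call in all its alternatives, Fgfr3 in SEZ_GFPprom against DIEC_GFP (adjusted p 0.000493 to 0.0370), and 0 changed sign. These and the 32 differences not called are of the leading probe sets, Erbb4 apart, and of the Fgfr2 probe set 1443211_at. Of the 32, 28 stayed so, and 7 had a change of sign. Where a group has 2 arrays, leaving one out assumes that the lone array varies like the other groups.

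Receptor probe sets past the threshold moved as follows, with smaller moves left out. Counts also rose, to at most 4 in SEZ_GFPprom against DIEC_GFP and 3 in SEZ_GFP against DIEC_GFP. In SEZ_GFPprom against DIEC_GFP they were 3, with 1 in the fit of only the groups compared and 1 to 3 without single arrays. Against SEZ_Prom they were 1, with 0 for 1 probe set per gene, for the replicate block and for the 3' to 5' covariate, and 0 to 1 without single arrays. Against SEZ_CD24 they were 2, with 1 for the replicate block and 1 for only the groups compared, and 0 to 3 without single arrays. In SEZ_GFP against DIEC_GFP they were 2, with 1 for values under 10 set to 10, 0 for the replicate block and 1 for only the groups compared, and 0 to 2 without single arrays. In SEZ_Prom against SEZ_CD24 they were 2, with 1 for values under 10 set to 10, 1 for 1 probe set per gene, 0 for the 3' to 5' covariate and 0 for only the groups compared, and 0 to 2 without single arrays. By the F test they were 5, with 3 for values under 10 set to 10 and 2 to 6 without single arrays. With 1 probe set per gene, the Fgfr2 probe set 1443211_at is not tested. Its calls in SEZ_GFPprom against SEZ_Prom and in SEZ_Prom against SEZ_CD24 are therefore absent there by design. Fewer arrays leave fewer degrees of freedom in fits without single arrays. Apart from these points, the cause was not tested.

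With the 3' to 5' covariate, these 7 changed sign. SEZ_GFPprom minus SEZ_GFP was 0.071 for Erbb2 and 0.20 for Fgfr2, against -0.08 and -0.19 without the covariate, SEZ_GFPprom minus SEZ_CD24 was -0.15 for Fgfr2, against 0.23, and SEZ_Prom minus SEZ_CD24 was 0.13 for Egfr, against -0.35, and -0.21 for Erbb2, against 0.17. Without single arrays the same differences ranged from -0.22 to 0.11, from -0.45 to 0.071, from -0.21 to 0.67, from -0.79 to 0.087 and from -0.26 to 0.60. For 1443211_at, SEZ_GFP minus DIEC_GFP was -1.03 with the covariate, against 0.12, and -0.14 to 0.50 without single arrays, and SEZ_GFPprom minus SEZ_CD24 was -0.16, against 0.20, and -0.083 to 0.34 without single arrays.

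Over all probe sets, the count of 5417 in SEZ_GFPprom against DIEC_GFP was 2066 with the covariate, 3247 for 1 probe set per gene, 3484 without DIEC_GFP replicate 2 and 3526 without SEZ_GFPprom replicate 2. Against SEZ_GFP 762 were called, 462 without SEZ_GFP replicate 1, 213 without SEZ_GFP replicate 2 and 353 with only the groups compared. Against SEZ_Prom 1654 were called, and 992, 403 and 562 without SEZ_GFPprom replicate 1, SEZ_Prom replicate 1 and SEZ_Prom replicate 2. Against SEZ_CD24 4227 were called, 2496 for 1 probe set per gene, 2808 and 1666 without SEZ_CD24 replicate 1 and 2, and 2465 with only the groups compared. In SEZ_GFP against DIEC_GFP 3556 were called, 2302 for 1 probe set per gene, 1676 with the covariate, 1540 and 940 without SEZ_GFP replicate 1 and 2, and 1971 with only the groups compared. In SEZ_Prom against SEZ_CD24 1450 were called, 131 with the covariate, 428 without SEZ_CD24 replicate 2, 306 and 244 without SEZ_Prom replicate 1 and 2, and 0 with only the groups compared. The F test called 7628, and 4700 for 1 probe set per gene. All counts for 1 probe set per gene are out of 18193 rather than 45037. They cannot be read as a drop in the share called.

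Whether the replicate numbers pair the arrays was not settled, and pairing by the numbers in the sample descriptions was not tested. Deviations from the group means correlated at -0.14 to 0.11 between arrays of the same number (22 pairs) and at -0.16 to 0.16 between arrays of different numbers (54 pairs). With the replicate block, the calls of Fgfr3 in SEZ_GFPprom against SEZ_CD24 (adjusted p = 0.0875), of Erbb3 (0.0853) and Fgfr3 (0.0698) in SEZ_GFP against DIEC_GFP and of the Fgfr2 probe set 1443211_at in SEZ_GFPprom against SEZ_Prom (0.0503) were not made. Over all probe sets the block gave 885 calls against SEZ_Prom and 2633 against SEZ_CD24. Erbb4 had no value with values under 10 set to 10. Signal over background limits Erbb2 and Erbb4, whose only probe sets lay near or below the array median.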
